A study of Homo sapiens with 4 samples.

Results

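Small nucleolar RNAs and small Cajal body RNAs were examined in UMSCC74B cells, a head and neck squamous carcinoma line, grown for 72 h after introduction of a control shRNA plasmid (2 libraries, control) or a PRMT5 shRNA plasmid (2 libraries, PRMT5 KD). The labels give all 4 libraries a wild-type genotype, the same cell line and total RNA prepared with a directional kit. The members were the gene names of the SNORD, SNORA and SCARNA series whose deposited count reached 10 in both control or in both PRMT5 KD libraries, so that the counts of these same libraries chose them. Of 327 such names among 29655 in the tables, 43 met this rule: 8 of 196 SNORD names, 24 of 107 SNORA names and 11 of 24 SCARNA names. Of the members, 32 passed in both groups, 10 passed in control alone and 1 passed in the PRMT5 KD libraries alone. The labels do not say whether the 2 libraries of a group came from separate cultures, and p-values therefore measure only the spread between these libraries.

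Box C/D RNAs, named SNORD, guide methylation of the ribose in ribosomal RNA and other targets. Box H/ACA RNAs, named SNORA, guide the change of uridine to pseudouridine. Small Cajal body RNAs, named SCARNA, carry one or both kinds of box and guide the same modifications in the RNAs of the spliceosome. A few members, among them U3 and the RNAs U17 and E3, act in cleavage of the ribosomal RNA precursor. In human cells most of them are cut from introns of other genes, and they work inside particles with FBL, NOP56, NOP58 and SNU13 (box C/D) or with DKC1, NHP2, NOP10 and GAR1 (box H/ACA).

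The sequences below mark boxes C, D and ACA, where their letters were found, in members that the results turn on. Box H was not marked, SNORD3A had no match for box C, and SNORD97 had none for box C or D. They were read from GRCh38 at the RefSeq positions (GRCh38.p14) on the strand that GENCODE release 44 gives, 5′ to 3′ in DNA letters. In the box C/D RNAs, capitals mark the first ATGATGA or GTGATGA (box C) and the CTGA nearest the 3′ end (box D). SNORD3A, a U3 copy, lies at chr17:19188016-19188232 on the plus strand, SNORD17 at chr20:17962710-17962946 on the minus strand and SNORD97 at chr11:10801467-10801608 on the minus strand.
SNORD3A: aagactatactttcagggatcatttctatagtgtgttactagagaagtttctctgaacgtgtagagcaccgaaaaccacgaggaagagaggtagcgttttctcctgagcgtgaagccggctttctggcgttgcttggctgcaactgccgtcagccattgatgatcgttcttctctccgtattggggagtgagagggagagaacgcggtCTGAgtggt
SNORD17: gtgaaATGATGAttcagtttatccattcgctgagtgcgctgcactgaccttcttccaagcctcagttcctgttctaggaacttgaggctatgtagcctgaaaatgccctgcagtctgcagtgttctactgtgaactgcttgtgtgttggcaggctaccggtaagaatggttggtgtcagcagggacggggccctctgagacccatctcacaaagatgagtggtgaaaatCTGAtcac
SNORD97: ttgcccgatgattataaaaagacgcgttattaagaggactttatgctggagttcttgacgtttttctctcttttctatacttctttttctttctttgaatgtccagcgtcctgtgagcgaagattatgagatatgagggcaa
In the box H/ACA RNAs, capitals mark the ACA that stands 3 bases before the 3′ end. SNORA73A (U17) lies at chr1:28507365-28507571 on the plus strand, SNORA63 (E3) at chr3:186787299-186787433 on the plus strand, SNORA23 at chr11:9428766-9428954 on the plus strand and SNORA8 at chr11:93732361-93732499 on the minus strand. SNORA73A, SNORA63 and SNORA23 were called lower in PRMT5 KD, and SNORA8 had the largest value above 0 among the SNORA members.
SNORA73A: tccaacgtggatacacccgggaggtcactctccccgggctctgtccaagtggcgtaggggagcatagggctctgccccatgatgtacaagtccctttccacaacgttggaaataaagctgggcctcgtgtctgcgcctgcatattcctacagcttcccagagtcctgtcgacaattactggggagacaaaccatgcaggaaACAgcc
SNORA63: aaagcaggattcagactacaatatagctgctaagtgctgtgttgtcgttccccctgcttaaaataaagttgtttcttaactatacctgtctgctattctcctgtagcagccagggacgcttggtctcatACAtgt
SNORA23: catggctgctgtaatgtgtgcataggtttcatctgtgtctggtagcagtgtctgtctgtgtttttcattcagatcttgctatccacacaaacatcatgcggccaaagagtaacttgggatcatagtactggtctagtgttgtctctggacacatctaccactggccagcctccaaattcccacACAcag
SNORA8: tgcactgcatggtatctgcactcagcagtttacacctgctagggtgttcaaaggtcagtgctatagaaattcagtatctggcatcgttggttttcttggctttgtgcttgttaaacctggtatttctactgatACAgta
SCARNA5 and SCARNA6 lie in introns of 1 gene, ATG16L1, at chr2:233275726-233276003 and chr2:233288676-233288941 on the plus strand, and their boxes C and D are in capitals.
SCARNA5: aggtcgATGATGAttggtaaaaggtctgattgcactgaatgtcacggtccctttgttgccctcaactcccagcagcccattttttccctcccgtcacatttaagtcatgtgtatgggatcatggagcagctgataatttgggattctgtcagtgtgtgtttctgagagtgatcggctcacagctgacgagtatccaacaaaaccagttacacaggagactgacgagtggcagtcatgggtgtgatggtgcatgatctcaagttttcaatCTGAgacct
SCARNA6: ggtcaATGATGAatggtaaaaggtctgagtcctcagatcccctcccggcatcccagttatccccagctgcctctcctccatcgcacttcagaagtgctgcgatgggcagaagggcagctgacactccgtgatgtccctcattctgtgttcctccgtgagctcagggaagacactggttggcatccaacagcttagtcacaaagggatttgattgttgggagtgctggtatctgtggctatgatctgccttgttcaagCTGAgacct

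The spelled-out boxes were looked for on the RNA strand of the 307 names that had a strand. The letters ATGATGA or GTGATGA occurred in 3 of 8 SNORD members and in 63.8% of 177 SNORD names, and CTGA within 10 bases of the 3′ end occurred in 7 of 8 members and in 88.1% of those names. SNORD97 held neither. ACA within 5 bases of the 3′ end occurred in 22 of 24 SNORA members and in 91.6% of 107 SNORA names. Among SCARNA members, 8 of 11 held both boxes C and D, against 34.8% of 23 SCARNA names, and 3 of 11 held the terminal ACA, against 65.2% of those names. A match of letters is a description of the sequence.

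Among SNORD and SCARNA names, members were longer at the median than those that did not meet the count rule. SNORA members and the other SNORA names were close in length. The median length was 182.5 nt for SNORD members and 75 nt for the other 188 SNORD names, 137 nt against 133 nt for SNORA, and 330 nt against 131 nt for SCARNA. None of the 169 names shorter than 100 nt was a member, and 120 of them had no count in any library. Of 28 names of 150 nt or longer, 20 were members. Just inside the rule lay SNORA61 (counts of 10 and 27 in control, 7 and 14 in PRMT5 KD) and SNORA58 (11 and 15, then 14 and 11). Just outside lay SNORA21 (9 and 16, then 0 and 10) and SNORA48 (9 and 17, then 12 and 6).

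**Figure D1:**
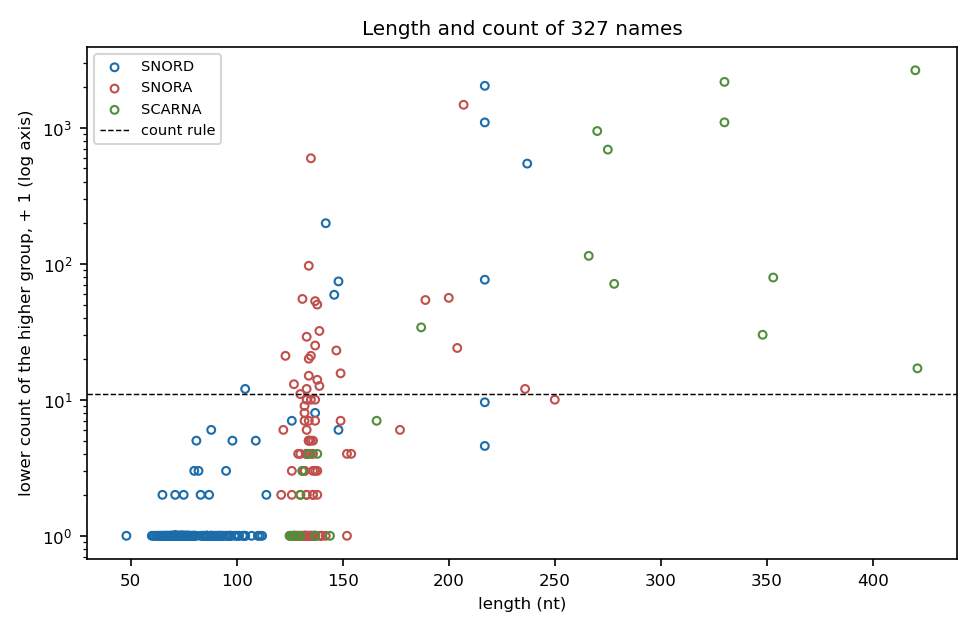
Length in nt of 327 SNORD, SNORA and SCARNA names against the lower count of the 2 libraries in whichever group had the higher such value, plus 1, on a log axis. The dashed line is the count rule of 10, and none of the names shorter than 100 nt lies on or above it.

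The PRMT5 transcript itself was more abundant in the libraries labelled PRMT5 KD, with counts of 3732 and 4215 in control and 6285 and 7150 in PRMT5 KD (log2 fold change 0.77, SE 0.13, edgeR adjusted p = 0.00273). The direction of every difference below is therefore stated for libraries by their label. The study reports that an immunoblot showed the silencing effect of the PRMT5 shRNA, which is a measure of protein, whereas these counts are of RNA. Keratins and CDH1, markers of squamous epithelium, were at or near 0 in control: KRT5 had counts of 0, 0, 0 and 4, KRT6A of 0, 1, 0 and 0, and CDH1 of 9, 4, 2 and 4 in the order control 1, control 2, PRMT5 KD 1 and PRMT5 KD 2. Of 8 squamous markers, 5 were tested and their levels summed to between 3.64 and 6.29 CPM (counts per 1000000 on TMM-scaled library totals), with 1 called lower (TP63) and 3 higher (KRT14, KRT17, SFN). TP63 made up most of the sum in control, with counts of 218 and 330 in control and 83 and 144 in PRMT5 KD, and EPCAM had 29 to 48 counts. Of 8 markers of blood, endothelial and stromal cells, 6 were tested and summed to 234 and 275 in control and 161 and 186 in PRMT5 KD, with 5 called lower, 1 higher (CD68) and CD3E at 0 in every library. CD68 had 71.1 and 84.8 CPM in control and 123 and 138 in PRMT5 KD, and the other 5 summed to 163 and 190 in control and 38.0 and 48.3 in PRMT5 KD. Ribosomal RNA names took 15.3% and 14.2% of counts in control and 26.2% and 18.0% in PRMT5 KD, and with those names left out the edgeR fit called 16 of 43 members lower and 0 higher, beside 22.5% and 20.8% of all names. The part of these differences in the results below was not tested, and in bulk RNA fewer cells of a type and less RNA per cell cannot be told apart. Totals were 52185289 and 65964558 counts in control and 64233361 and 55328869 in PRMT5 KD.

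Across the members, levels were mostly lower in the libraries labelled PRMT5 KD. A name was called at an edgeR adjusted p under 0.05 with a log2 fold change of at least 0.5 in size. Among the 32 members that passed the count rule in both groups, 13 were called lower and 0 higher, beside a background of 21.9% of all 16265 names tested called lower and 21.7% called higher. Over all 43 members, 17 had an unadjusted p under 0.05 in the lower direction and 2 in the higher. DESeq2 called 13 of the 43 lower and 0 higher, beside 21.2% and 21.0% of all names, and edgeR called 16 of the 43 lower. The median log2 fold change of the 32 was -0.70, beside 0.01 over all names tested, and 26 were below 0 and 6 above. Both PRMT5 KD libraries lay below both controls for 21 of the 32 and above both for 3, where the background was 38.8% below and 39.4% above. Among 39 other tested names no longer than the longest member, 7 were called lower and 12 higher. The members were chosen by counts in these libraries, so these counts describe them and are not a test of the group.

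**Figure D2:**
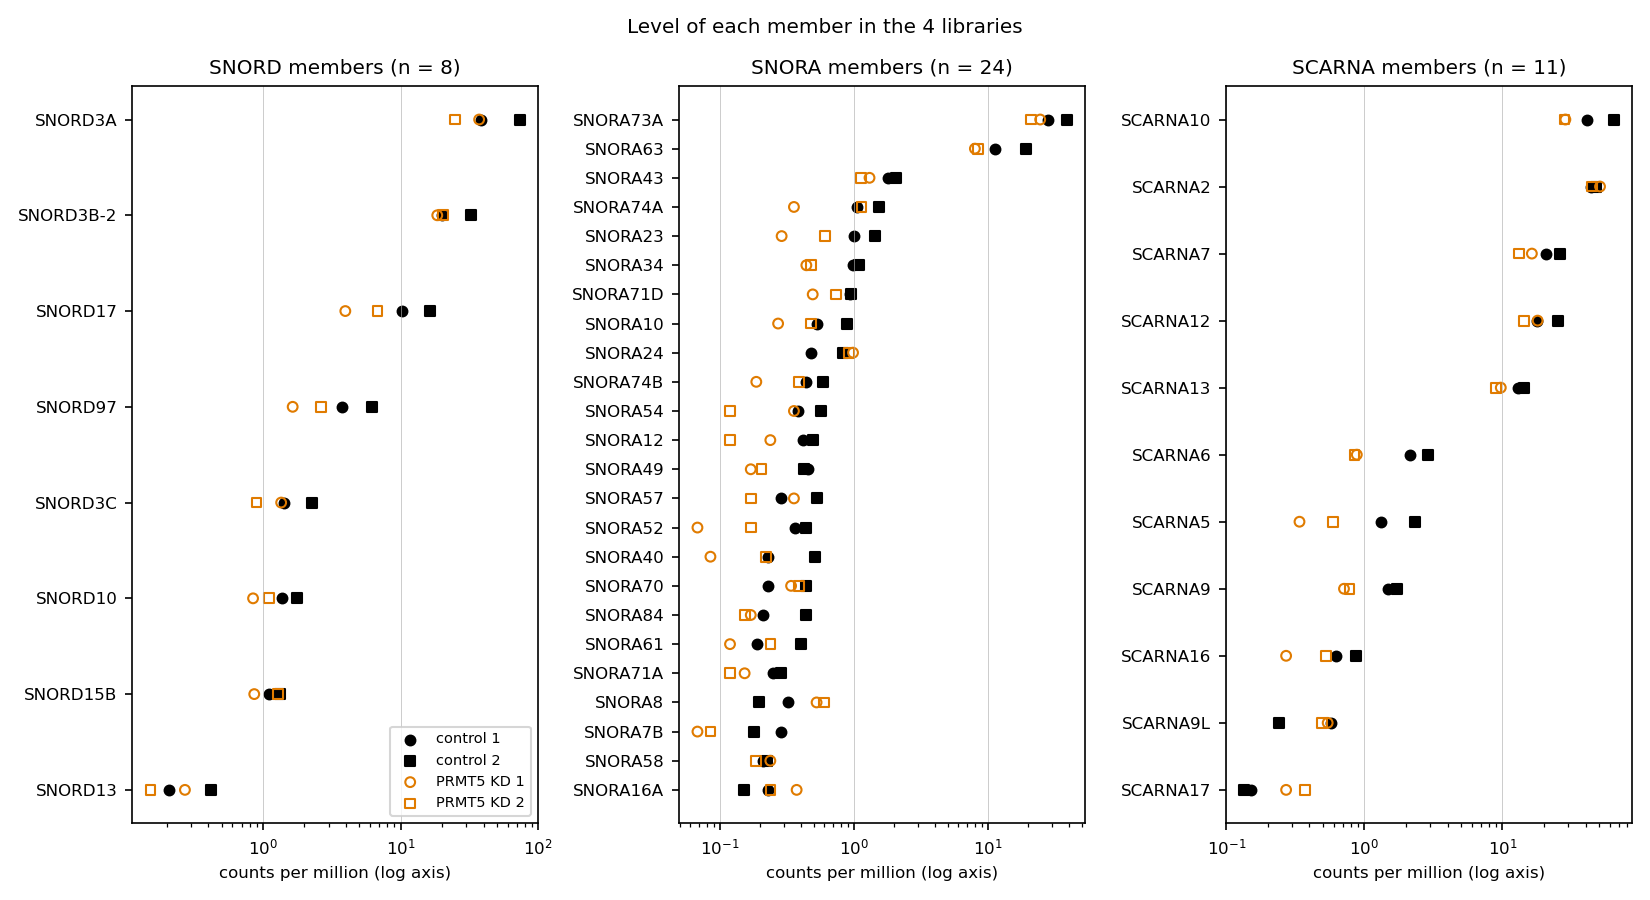
Level of each of the 43 members in CPM on a log axis, in 3 panels by class. Black filled points are the control libraries and orange open points the PRMT5 KD libraries, with circles for replicate 1 and squares for replicate 2. For SNORD17, SNORD97, SCARNA5 and SCARNA6 both orange points lie left of both black points, whereas the 4 points of SCARNA2 lie together between 43.6 and 50.9 CPM.

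The calls needed the library control 2. It was above control 1 for 37 of 43 members (86.0%), with a median ratio of 1.39, while it was above control 1 for 8127 of 16265 names tested. The PRMT5 KD libraries were closer, with replicate 2 above replicate 1 for 23 of 43 members and a median ratio of 1.08. Without control 2, the edgeR fit called 0 of 43 members, beside 10.8% of all names called lower and 10.5% higher in the same fit. Of the members, 4 had an unadjusted p under 0.05, the lowest adjusted p was 0.0724, and 35 were still below 0 with a median of -0.48. Without control 1, 10 were called lower, beside 15.1% of all names. Without PRMT5 KD 1, 13 were called lower, beside 22.6% of all names, and 2 higher (SCARNA17 and SNORA8), beside 22.1%. Without PRMT5 KD 2, the median log2 fold change of the members was -0.89. The members called lower were not all the same from fit to fit. SCARNA10 and SNORA63 lost their calls without control 2 and without either PRMT5 KD library. SNORA23 lost its call without control 1, control 2 or PRMT5 KD 1. In these fits the lone library was assumed to vary like the other group.

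Of the RNAs that act in cleavage of the ribosomal RNA precursor, SNORD3A, SNORD3B-2, SNORA73A and SNORA63 were among the 3 most abundant members of their class per kb. The other names on this list had fewer counts. U3, which guides early cleavages of the precursor, is encoded by near-identical copies whose sequences differ from SNORD3A at 1 base (SNORD3B-1, SNORD3B-2, SNORD3C) or 3 bases (SNORD3D), and their counts carry decimals. SNORD3A reached 38.4 and 73.4 CPM in control and 37.2 and 24.7 in PRMT5 KD. Per kb of length it was the most abundant member, at a mean of 200.1 CPM per kb over the 4 libraries. PRMT5 KD 1 lay close to control 1 for SNORD3A, and the main edgeR fit did not call the difference (log2 fold change -0.85, SE 0.37, edgeR adjusted p = 0.113). DESeq2 called SNORD3A lower (-0.87), and without control 2 its edgeR value was -0.31. With the 5 copies summed, U3 gave 59.9 and 109 CPM in control and 57.4 and 46.0 in PRMT5 KD. The summed U3 was not called by edgeR (log2 fold change -0.71, SE 0.31, edgeR adjusted p = 0.115). SNORD3C (-0.72) and SNORD3B-2 (-0.44) had values below 0 and were not called, and SNORD3B-1 and SNORD3D were under the count rule. SNORD13, which acts in maturation of the small subunit RNA, had 11 and 28 counts in control and 16 and 9 in PRMT5 KD, and met the rule in control alone.

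U17 and E3, the box H/ACA RNAs of the same process, were both called lower. SNORA73A (U17) had 27.8 and 38.7 CPM in control (33.3 ± 7.64, SD, n = 2) and 24.5 and 21.0 in PRMT5 KD (22.7 ± 2.51, SD, n = 2), so the groups did not overlap (log2 fold change -0.55, SE 0.18, edgeR adjusted p = 0.0420). SNORA63 (E3) had 11.2 and 19.1 CPM in control and 7.98 and 8.40 in PRMT5 KD, a log2 fold change of -0.89 (SE 0.26, edgeR adjusted p = 0.0280). For both, control 1 was nearer to the PRMT5 KD libraries than to control 2, and without control 2 the log2 fold changes were -0.29 and -0.46 and not called. Of the other names on this list, SNORD118 (U8) had no count in any library, and SNORD14A to SNORD14E, SNORD22 and SNORA62 had at most 8 counts. No count was found for 155 of the 327 names, and whether such RNAs were absent from the cells was not tested.

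The box C/D guides were led by SNORD17 and SNORD97, the 2 members of the class called in the main edgeR fit. These 2 of 8 called lower are close to the share over all names, 21.9%, and 0 were called higher, beside 21.7%. SNORD17, a guide of ribosomal RNA methylation in an intron of SNX5, had 10.3 and 16.3 CPM in control (13.3 ± 4.26, SD, n = 2) and 3.96 and 6.78 in PRMT5 KD (5.37 ± 1.99, SD, n = 2). The groups did not overlap, with a log2 fold change of -1.31 (SE 0.33, edgeR adjusted p = 0.0218). SNORD97, in an intron of the canonical transcript of EIF4G2, had 3.74 and 6.22 CPM in control and 1.64 and 2.65 in PRMT5 KD, a log2 fold change of -1.22 (SE 0.34, edgeR adjusted p = 0.0241). SNORD10, in EIF4A1, had 1.38 and 1.75 CPM in control and 0.847 and 1.10 in PRMT5 KD and was not called (-0.69, edgeR adjusted p = 0.104). SNORD15B, in RPS3, overlapped between groups, at 1.10 and 1.33 CPM in control and 0.864 and 1.29 in PRMT5 KD.

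Among the box H/ACA guides that passed in both groups, 5 of 15 were called lower and 0 higher, beside 21.9% and 21.7% of all names. The lowest was SNORA23, in an intron of IPO7, with 1.01 and 1.42 CPM in control and 0.288 and 0.611 in PRMT5 KD (log2 fold change -1.44, SE 0.43, edgeR adjusted p = 0.0293). SNORA34, in KANSL2, had 0.986 and 1.09 CPM in control and 0.440 and 0.475 in PRMT5 KD (-1.18, edgeR adjusted p = 0.0205), and SNORA49, in EP400, differed by -1.22 (adjusted p = 0.0388). The call of SNORA49 was kept in 8 of 16 other settings and lost, among others, with DESeq2, with library totals alone and without a low-count filter. SNORA43, the third most abundant of the class per kb, had 1.80 and 2.05 CPM in control and 1.30 and 1.12 in PRMT5 KD and was not called (-0.67, adjusted p = 0.0836). SNORA52, SNORA7B and SNORA12 met the count rule in control alone, so that the rule itself favoured lower values in PRMT5 KD. Their counts were 19 and 29 in control and 4 and 10 in PRMT5 KD for SNORA52, 15.1 and 11.6 then 3.64 and 4.57 for SNORA7B, and 22 and 33 then 14 and 7 for SNORA12. The 6 other SNORA members that met the rule in control alone (SNORA40, SNORA84, SNORA54, SNORA71A, SNORA61 and SNORA57) were not called, with log2 fold changes from -1.29 to -0.64. Of those that passed in both groups, SNORA10 (-0.93), SNORA74B (-0.83), SNORA74A (-0.80), SNORA71D (-0.62) and SNORA58 (-0.04) were not called either.

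Counts carried decimals for 7 members, which were SNORD3A, SNORD3B-2, SNORD3C, SNORA7B, SNORA43, SNORA57 and SCARNA13. The other 36 members, among them SNORA74A and SNORA74B, had whole counts in all 4 libraries.

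Of the SNORA members, 4 of 24 had values above 0, none of them called. SNORA8, in TAF1D, had 17 and 13 counts in control and 31 and 35 in PRMT5 KD, without overlap (log2 fold change 1.13, SE 0.41, edgeR adjusted p = 0.0547), and was not called. SNORA24 (0.53) and SNORA16A (0.71) had both PRMT5 KD libraries above both controls and were not called, and SNORA70 (0.11) overlapped.

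Of the 10 small Cajal body RNAs that passed in both groups, 6 were called lower and 0 higher, beside 21.9% and 21.7% of all names. SCARNA5 (U87), a mixed C/D and H/ACA guide, had 1.33 and 2.31 CPM in control (1.82 ± 0.694, SD, n = 2) and 0.339 and 0.594 in PRMT5 KD (0.466 ± 0.180, SD, n = 2), a log2 fold change of -1.97 (SE 0.43, edgeR adjusted p = 0.00825). SCARNA6 (U88), its neighbour in ATG16L1, had 2.14 and 2.89 CPM in control and 0.881 and 0.848 in PRMT5 KD (log2 fold change -1.54, SE 0.30, edgeR adjusted p = 0.00502). In both, every PRMT5 KD library lay below every control library. Without control 2 the values were -1.51 and -1.31 and not called.

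SCARNA10 (U85), a guide for the U5 RNA of the spliceosome, was the most abundant of the class per kb. It had 41.0 and 63.7 CPM in control and 28.5 and 28.1 in PRMT5 KD (log2 fold change -0.89, SE 0.21, edgeR adjusted p = 0.0149). Without control 2 the log2 fold change of SCARNA10 was -0.53. SCARNA9 (-1.10), SCARNA7 (-0.67) and SCARNA13 (-0.55) were also called lower. SCARNA16 had 0.626 and 0.870 CPM in control and 0.271 and 0.526 in PRMT5 KD, without overlap, and was not called (-0.91, edgeR adjusted p = 0.117). SCARNA12, in PHB2, had 17.9 and 25.1 CPM in control and 18.0 and 14.3 in PRMT5 KD, which overlapped (-0.42, edgeR adjusted p = 0.130).

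SCARNA2, a guide for the U2 RNA with no host gene in the tables, had similar values in all 4 libraries. It had 43.6 and 47.5 CPM in control (45.6 ± 2.77, SD, n = 2) and 50.9 and 44.6 in PRMT5 KD (47.8 ± 4.41, SD, n = 2). The groups overlapped, with a log2 fold change of 0.07 (SE 0.12, edgeR adjusted p = 0.676), which turned to -0.061 under upper-quartile factors, -0.019 without control 1 and -0.031 without PRMT5 KD 1. SCARNA17 met the rule in the PRMT5 KD libraries alone, with 8 and 9 counts in control and 16 and 22 in PRMT5 KD. SCARNA9L overlapped between groups (0.38).

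**Figure D3:**
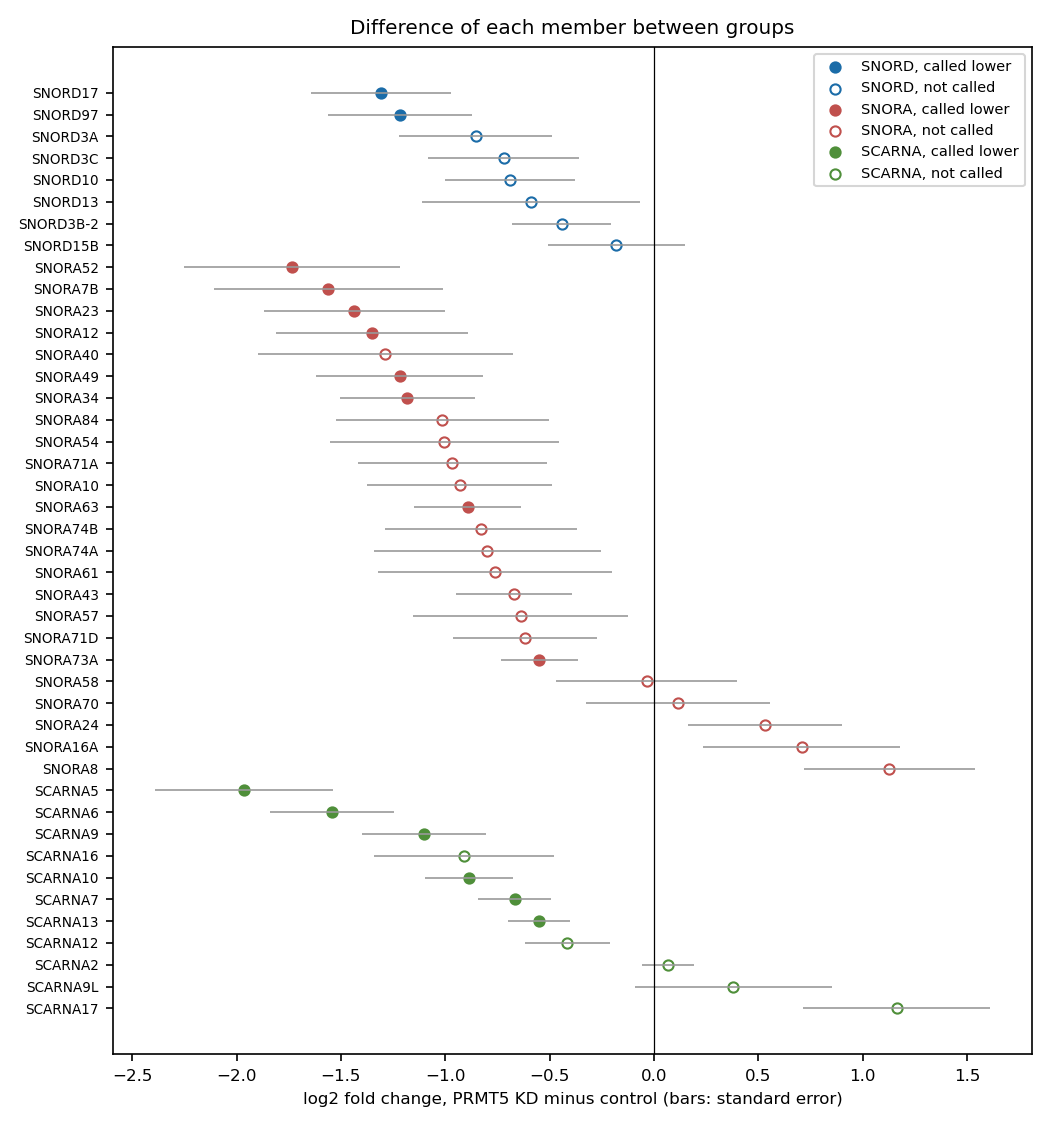
Log2 fold change of each of the 43 members, PRMT5 KD minus control, with bars of 1 standard error on either side, grouped by class. Filled points were called lower and open points were not called; no member was called higher.

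The classes were compared by their summed counts. Most SNORD counts came from U3 copies, which the main edgeR fit did not call and of which DESeq2 called SNORD3A lower. In control, SNORD3A gave 2023 and 4898 and SNORD3B-2 gave 1047 and 2173 of the 4025 and 8960 SNORD counts. SNORD members together took 77.1 (95% Wilson interval 74.8 to 79.5) and 135.8 (133.0 to 138.7) of each 1000000 counts in control and 59.3 (57.5 to 61.2) and 61.6 (59.5 to 63.7) in PRMT5 KD. SNORA members took 50.9 and 73.2 in control and 36.8 and 40.7 in PRMT5 KD. SCARNA members took 143.9 and 187.2 in control and 116.2 and 120.3 in PRMT5 KD. In every class both PRMT5 KD libraries were below both controls, with group mean ratios of 0.568, 0.625 and 0.714, but the 2 controls differed more than the 2 PRMT5 KD libraries did. The exact two-sided permutation test gave p = 0.333 for each, the smallest value that 2 against 2 libraries allow. Without control 2 the log2 ratios of group means moved from -0.82 to -0.35 for SNORD, from -0.68 to -0.39 for SNORA and from -0.49 to -0.28 for SCARNA. Ribosomal RNA is part of the library totals and took a larger share of them in PRMT5 KD. Over counts without ribosomal RNA, the log2 ratios were smaller in size, at -0.68 for SNORD, -0.55 for SNORA and -0.35 for SCARNA. The Wilson intervals cover counting error only.

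Over all members, U3 copies included, the balance of box C/D to box H/ACA counts did not separate the groups. SNORD counts were 1.52 and 1.86 times the SNORA counts in control (1.69 ± 0.240, SD, n = 2) and 1.61 and 1.51 times in PRMT5 KD (1.56 ± 0.0702, SD, n = 2). The groups overlapped, and the exact two-sided permutation p was 0.667. Log2 of the ratio of group means was -0.11 and turned to 0.075 without SNORD3A and SNORA73A, the most abundant member of each class by count. Over the members with whole counts, which leave out the U3 copies, it was larger in size, at -0.47. The lack of separation therefore describes sums that are mostly U3.

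**Figure D4:**
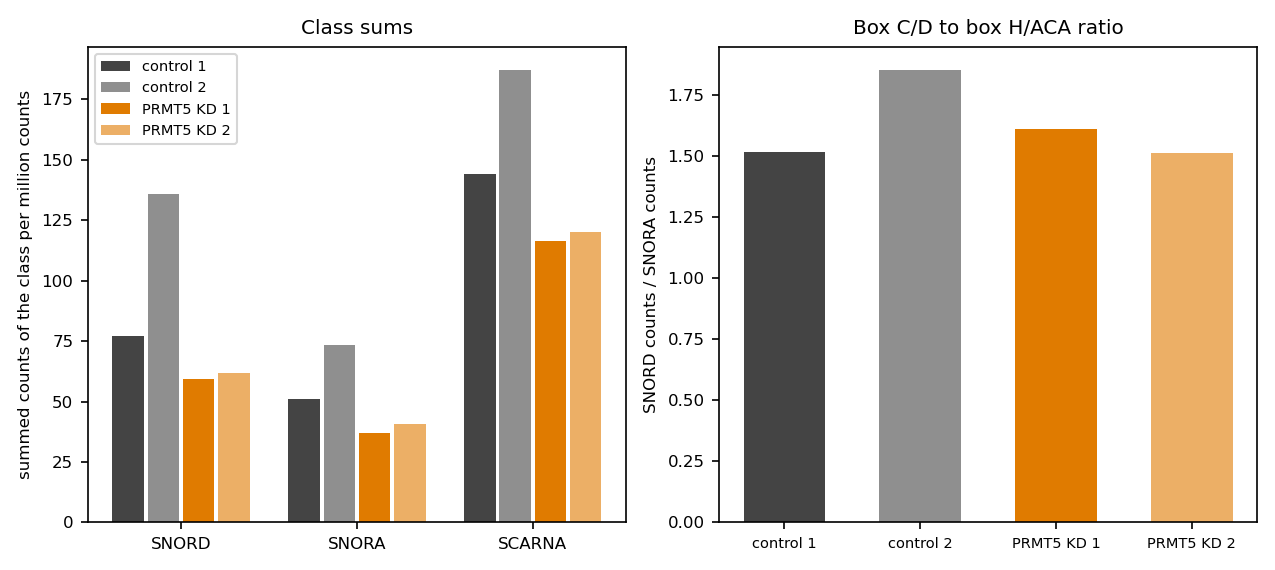
Left, summed counts of the SNORD, SNORA and SCARNA members in each library, per 1000000 counts, as bars from 0. Right, SNORD counts divided by SNORA counts in each library. The left bars are lower in both PRMT5 KD libraries in all 3 classes, and the right bars lie between 1.51 and 1.86 in no order by group.

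Most members inside a host gene were below 0, and most host genes were above 0. Opposite signs in most pairs follow from these shares alone, so they are no test of a link between member and host. For 36 members, 32 distinct host genes of the same strand were in the tables, and all 36 lay in an intron of the host's canonical transcript, of which 17 lay in introns of every transcript. The other 7 members, SCARNA2, SCARNA17, SNORA7B, SNORD13, SNORD3A, SNORD3B-2 and SNORD3C, had no host there. Of the 32 hosts, 14 were called higher and 0 lower, 27 were above 0 and the median log2 fold change was 0.44. Over all names tested, 21.7% were called higher and 21.9% lower, 8177 of 16265 were above 0 and the median was 0.01. Of the 36 hosted members, 8 met the count rule in control alone, which favours values below 0. Among the 28 that passed in both groups, 23 were below 0, and 19 of these had a host above 0. Of these 28, 13 were called lower, of which 6 had a host called higher and 0 a host called lower. Beside this stand the 14 of 32 hosts called higher. ATG16L1, an autophagy gene, had 26.9 and 22.5 CPM in control and 36.3 and 40.6 in PRMT5 KD, while SCARNA5 and SCARNA6 within it were lower. NCAPD2, a condensin subunit and host of SCARNA10, had 149 and 126 CPM in control and 242 and 269 in PRMT5 KD (0.90, edgeR adjusted p = 0.00218). SNORD17 and its host SNX5 (0.31) and SNORD97 and EIF4G2 (0.25) had values of opposite sign, with neither host called. Reads from unspliced host RNA cannot be told from those of the small RNA inside it.

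**Figure D5:**
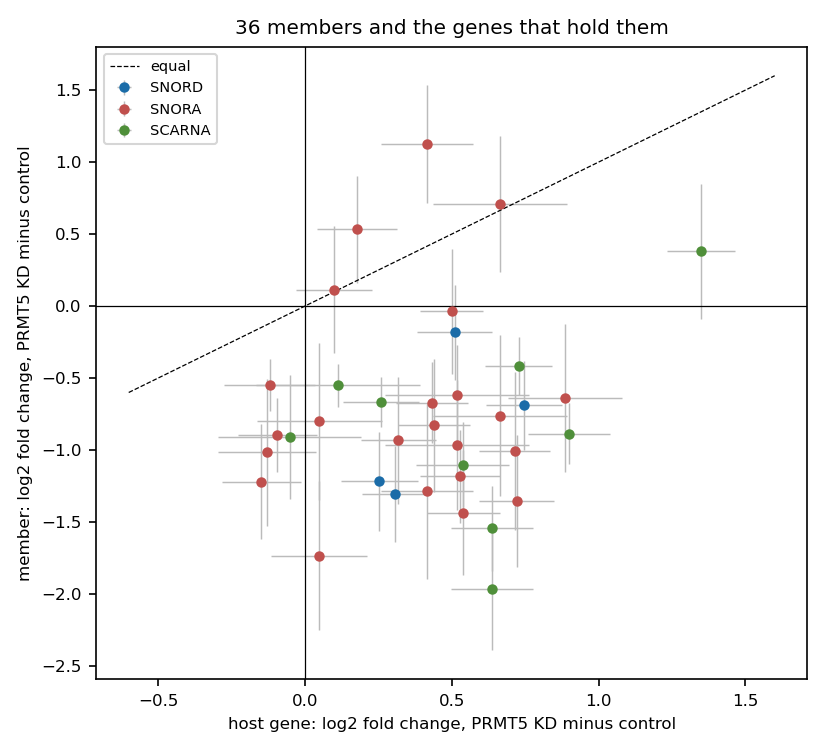
Log2 fold change of 36 members against that of their host gene, PRMT5 KD minus control, coloured by class, with bars of 1 standard error and a dashed line of equality. Of the points, 26 lie to the right of 0 and below 0, with a member below and its host above, and 19 of these members met the count rule in both groups. Of all 36 members, 31 were below 0.

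Each of 4 hosts held 2 members, and these neighbours were compared within the library. In TAF1D, SNORA8 had 1.42 and 0.382 times the counts of SNORA40 in control and 6.20 and 2.69 times in PRMT5 KD, without overlap. The denominators SNORA40, SNORA61 and SNORA71A met the rule in control alone, which favours a higher ratio in PRMT5 KD, so that 3 of the 4 comparisons describe these names and test nothing. In SNHG12, SNORA16A had 1.20 and 0.370 times the counts of SNORA61 in control and 3.14 and 1.00 times in PRMT5 KD, which overlapped. SCARNA6 to SCARNA5 in ATG16L1 and SNORA71D to SNORA71A in SNHG17 overlapped as well, and most of these names had few counts.

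Transcripts of the proteins that hold these RNAs had mostly higher counts under the PRMT5 KD label. Of the 4 core box C/D proteins, 4 were called higher. FBL, the methyltransferase, had counts of 1289 and 1442 in control and 3278 and 3489 in PRMT5 KD (log2 fold change 1.32, SE 0.12, edgeR adjusted p = 0.000368), and NOP56 (1.30), NOP58 (0.99) and SNU13 (0.85) followed. Of the core box H/ACA proteins, 3 of 4 were called higher: DKC1, the pseudouridine synthase (0.96), GAR1 (0.76) and NHP2 (0.70), while NOP10 (0.42) was not. Of 10 assembly factors, 6 were called higher, with NOPCHAP1 (1.10) the highest and ZNHIT6 (0.20) the lowest. Of 10 genes of the Cajal body and of small RNA caps, 6 were called higher, among them NOLC1 (1.22), WRAP53, which brings Cajal body RNAs to that body (1.11), and COIL (0.66), with USPL1 at -0.04. Of 8 trimming and decay genes, 2 were called higher, TOE1 (1.45) and EXOSC10 (0.97), and none was called lower. Background shares for these calls are the 21.7% and 21.9% given above.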

How the data were processed

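Sequencing was on the Singular Genomics G4 in 4 UMSCC74B libraries, grouped by their labels. The authors deposited estimated counts, 1 table per library, that are not normalized. The submitters' processing notes name FastQC, Trim Galore, STAR, Salmon, DESeq2 and GRCh38, and the study's methods name FeatureCounts, while the tables list RefSeq-style symbols with decimals. The labels say transfection of shRNA plasmids, whereas the methods describe transduction. Of 29744 entries per table, 28 with date-like names (0.150% to 0.161% of counts) were left out, and counts of the same name were summed and rounded.

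Names with 10 counts in both libraries of a group were tested with the quasi-likelihood test of edgeR 4.0.16 (R 4.3.3, TMM over all names, robust), adjusted by Benjamini-Hochberg over all names. DESeq2 1.42.0, other scalings and filters and left-out libraries were tried. The fit was tested on simulated data. Named members are the 3 most abundant per class per kb, called members with the largest changes (mean count of at least 50, groups not overlapping, passed in both groups), the RNAs of precursor cleavage and members of the hosts with most members. Others named outside this rule were chosen after their values were seen. Members and lists were chosen with earlier results of these data known. Hosts are the shortest same-strand gene of GENCODE release 44 that contains a member and is listed in the tables.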

Additional observations from a re-analysis of the deposited data

How the results depend on the processing

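Over all names, the deviations of same-numbered libraries had a correlation of -0.10, and over members 0.10, so the numbers were not taken to pair the libraries. With the replicate number as a block, 10 of 43 members were called lower and 0 higher, against 16 and 0 without it. The block fit called 3142 of all 16265 names lower and 3258 higher. The crossed pairing, chosen after seeing the data, called 14 lower, beside 3682 of all names. SNORD3A, not called in the main fit, was among these 14 and among the 13 that DESeq2 called. Leaving out 1 library gave between 0 and 15 members called, lower or in total, with 0 without control 2, 10 without control 1 and, in the higher direction, 0 to 2. Library totals, protein-coding TMM factors, omission of ribosomal RNA, upper-quartile factors, the 3 other count filters, a fit that is not robust and DESeq2 gave 13 to 17 called lower and 0 higher, as did U3 copies summed, also chosen after seeing the data. The 32 members that passed in both groups alone, also an added choice, gave 13, and the 36 with whole counts gave 14. Beside both stand the 21.9% of all names called lower. A log2 fold change of at least 1 gave 11, for which the share of all names was not computed. Over all names, the other scalings, filters and DESeq2 on all 4 libraries called 3433 to 4218 lower and 2769 to 3542 higher. Upper-quartile factors gave 4218 lower and 2769 higher and moved the median of all names to -0.12. Of the 4 fits without 1 library, class shares stayed below 0 in each of the 3 classes.

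The SNORD to SNORA ratio, -0.11 on the log2 scale, was -0.47 over members with whole counts and turned to 0.075 without the most abundant member of each class. It ranged from -0.25 (without control 1) to 0.043 (without control 2) with 1 library left out. SCARNA2 turned from 0.07 to -0.061 under upper-quartile factors, -0.019 without control 1 and -0.031 without PRMT5 KD 1 (up to 0.15 without PRMT5 KD 2), and SNORD13 from -0.59 to 0.022 without control 2 (down to -1.06 without PRMT5 KD 1). The cause was not tested.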
